A study of Mus musculus with 6 samples.

Results

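The genes described here are 44 genes of DNA replication and the S phase of the cell cycle, which were taken by symbol from the 32285 genes of each count matrix. They comprise 11 genes of the replicative helicase and its partner Mcm10, 5 genes of origin licensing and firing, 6 genes of the DNA polymerases and primase, 9 genes around the sliding clamp, 5 genes of nucleotide supply, 4 genes of chromatin and replication control, and the 4 genes of cyclin E and E2F. All 44 symbols had a row in the matrices, and all 44 were matched to a position in the mouse build GRCm38, on 16 chromosomes. Their unique molecular identifiers (UMIs, each of which marks 1 captured transcript) were summed per library and per class of cells, and Fpr2VKO was compared with Fpr2f/f.

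A cell copies its genome once per division. In G1, the origin recognition complex, Cdc6 and Cdt1 load the Mcm helicase onto DNA, and in S phase Cdc45 and the GINS complex turn it into an active helicase. DNA polymerase alpha and primase start each new strand, the clamp loader (the Rfc genes) places the ring-shaped clamp Pcna on the DNA, and Fen1 and Lig1 join the fragments. Many of these genes are transcribed by E2F factors, which cyclin E and its kinase release from the retinoblastoma protein late in G1. In the small intestine, stem cells and transit-amplifying (TA) cells at the crypt base divide, whereas enterocytes, Paneth cells, goblet cells, most enteroendocrine cells and tuft cells (chemosensory cells that carry Dclk1 and Trpm5) have left the cycle.

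Crypts of the mouse ileum were dissociated, cells positive for EpCAM were sorted, and their RNA was counted cell by cell on the MobiNova-100 droplet platform. There were 3 Fpr2f/f libraries, labelled WT, from mice in which both copies of Fpr2, a receptor for formyl peptides, carry recombination sites and no Cre was named, and 3 Fpr2VKO libraries, from such mice with Cre driven by the Villin promoter, which acts in intestinal epithelium and leaves other cells with the gene. The floxed mice were on the C57BL/6J background, and the study used sex- and age-matched mice of 8 to 12 weeks. Each group held 3 mice, but no label ties a mouse to a library, so p-values measure the spread between libraries.

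Fpr2 itself had 0 UMIs in each of the 6 libraries, over every barcode, so its deletion could not be checked from these counts. The libraries held 90142126 to 189516114 UMIs, and 1840 to 4544 cells per library were kept, whose median depth was 2974 to 6586 UMIs. The limit of 20% mitochondrial UMIs removed 65.7% to 78.0% of the barcodes that met the UMI and gene minimum in the Fpr2f/f libraries and 76.1% to 90.1% in the Fpr2VKO libraries. After removal of the likeliest doublets (28 to 178 barcodes per library), clusters were named from marker genes, with the ending "-like" because the names rest on transcripts alone. Any 2 libraries shared 0 to 23 barcodes over the 15 pairs, where 1.79 to 5.68 were expected from the sizes of the lists. Pairs among replicates 1 and 2 of both groups shared 8 to 23, and the replicates 3 of the 2 groups shared 9. All pairs across these 2 sets shared 0 to 4. The origin of the sets was not tested. Free RNA was not subtracted, and in barcodes under 100 UMIs the 44 genes took 0.0740% to 0.102% of the UMIs.

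The 44 genes took their largest shares of UMIs in the stem-like and TA-like cells. To compare cells of unlike depth, the share of UMIs from these genes was averaged over cells of at least 2000 UMIs, each cell counting equally. It was 0.388% ± 0.0441 in Fpr2f/f and 0.346% ± 0.0389 in Fpr2VKO stem-like cells, and 0.269% ± 0.0156 and 0.263% ± 0.0257 in TA-like cells (mean ± SD, n = 3 libraries each, here and below). Clusters that no marker list named came next, with 0.129% ± 0.00615 and 0.135% ± 0.00643. They held 1448 of 2560, 3044 of 4492 and 1591 of 2722 epithelial cells in Fpr2f/f. In Fpr2VKO they held 1104 of 2144, 1164 of 2656 and 795 of 1821. Goblet-like cells had 0.0923% ± 0.00540 and 0.0975% ± 0.00807, and enteroendocrine-like cells 0.0772% ± 0.0246 and 0.0881% ± 0.0249. Levels were lowest in enterocyte-like cells (0.0337% ± 0.00538 and 0.0366% ± 0.00374) and Paneth-like cells (0.0329% ± 0.00400 and 0.0310% ± 0.0117). By this measure the libraries of the 2 groups overlapped in each of these classes. Tuft-like cells were the exception, with 0.04996%, 0.0501% and 0.0689% in Fpr2f/f against 0.106%, 0.116% and 0.0983% in Fpr2VKO, which did not overlap. When UMIs were summed over all cells of a library, goblet-like cells did not overlap either. They had 0.0770%, 0.0839% and 0.0821% in Fpr2f/f against 0.0847%, 0.113% and 0.113% in Fpr2VKO. The differences between classes are a description, since the clusters were formed on the same cells.

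**Figure D1:**
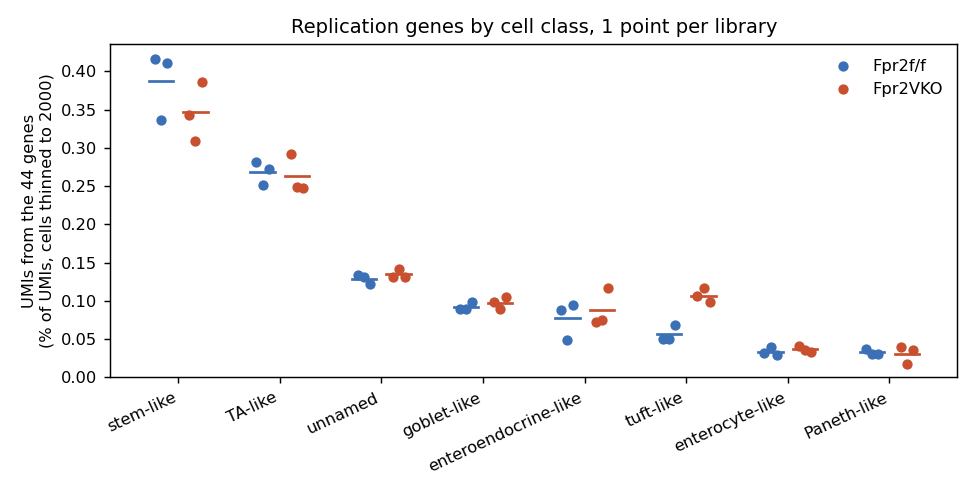
Percent of UMIs from the 44 replication genes in each class of cells, averaged over cells of at least 2000 UMIs; each point is 1 library (blue Fpr2f/f, red Fpr2VKO) and each line the mean of 3. Stem-like cells reach 0.416% and Paneth-like cells stay at or below 0.0395%, and tuft-like cells are the class in which the points of the 2 groups lie apart.

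The promoters of these genes share letters that the choice of genes did not use. RefSeq start sites on GRCm38.p6 gave 42 promoters for 36 of the 44 genes (250 bases before to 50 after each start). The E2F letters TTTCCCGC, TTTCGCGC, TTTGCCGC or TTTGGCGC, on either strand, were in 17 of the 42, or 40.5%, against 2.26% of all 32851 promoters. The CHR letters TTTGAA or TTCGAA, known from genes of mitosis, were in 19.0% of these promoters and in 19.2% of all, but in 77.8% of the 18 promoters of a list of mitosis genes, of which 5.56% held the E2F letters. CCAAT was in 57.1%, against 37.4% of all promoters. A match describes the letters and is not a shown binding site. Of the genes that the results below turn on, Pclaf (chr9:65890073-65890372, plus strand) holds 1 match, Pola1 (chrX:93632106-93632405, minus strand) 1 and Mcm6 (chr1:128359656-128359955, minus strand) 3, of which 2 overlap, while Pcna (chr2:132253131-132253430, minus strand) holds these letters nowhere in its window. The windows of Dut, Rfc4, Tyms, Rrm2 and Ccne1 also hold 0 matches. The Dut window (chr2:125247265-125247564, plus strand) lies wholly inside the gene, which is annotated from base 125247190. Bases before that annotated start were not searched. The 4 windows are shown 5′ to 3′ along the gene, with the E2F letters in capitals.
Pclaf: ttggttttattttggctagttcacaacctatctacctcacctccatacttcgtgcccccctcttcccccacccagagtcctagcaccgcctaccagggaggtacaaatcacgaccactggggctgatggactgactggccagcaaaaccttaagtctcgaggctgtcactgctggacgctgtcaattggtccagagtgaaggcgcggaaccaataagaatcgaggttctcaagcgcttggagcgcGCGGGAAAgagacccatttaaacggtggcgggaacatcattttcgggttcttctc
Pola1: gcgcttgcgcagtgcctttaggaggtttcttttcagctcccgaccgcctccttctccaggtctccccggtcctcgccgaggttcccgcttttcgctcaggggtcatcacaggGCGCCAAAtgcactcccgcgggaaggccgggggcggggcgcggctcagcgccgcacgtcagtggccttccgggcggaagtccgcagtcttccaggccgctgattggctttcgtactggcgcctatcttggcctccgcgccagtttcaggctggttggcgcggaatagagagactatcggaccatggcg
Mcm6: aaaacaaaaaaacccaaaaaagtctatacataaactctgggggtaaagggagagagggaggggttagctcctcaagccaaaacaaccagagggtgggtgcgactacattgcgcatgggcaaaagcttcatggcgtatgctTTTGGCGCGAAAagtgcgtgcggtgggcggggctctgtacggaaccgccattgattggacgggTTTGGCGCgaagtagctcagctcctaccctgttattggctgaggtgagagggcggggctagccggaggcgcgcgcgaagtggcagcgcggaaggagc
Pcna: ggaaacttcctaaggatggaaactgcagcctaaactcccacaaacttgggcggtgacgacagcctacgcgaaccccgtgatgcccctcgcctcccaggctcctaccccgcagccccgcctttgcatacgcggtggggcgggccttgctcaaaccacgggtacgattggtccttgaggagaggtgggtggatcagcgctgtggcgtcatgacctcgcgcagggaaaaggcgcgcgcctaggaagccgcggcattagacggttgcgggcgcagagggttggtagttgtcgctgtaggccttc

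Stem-like cells addressed whether the dividing cells at the crypt base carried less replication RNA without Fpr2. None of the 44 genes passed the edgeR test there (adjusted p under 0.05 over the 11262 genes tested, of which 0.0799% passed), 5 had an unadjusted p under 0.05 (7.12% of all tested genes did), and DESeq2 called 0. The estimates leaned low. In 37 of 44 genes they were below 0, with a median log2 fold change of -0.14 (range -0.49 to 0.03), where all tested genes had a median of 0.00 and 50.7% of them were above 0. The lowest adjusted p was 0.597. In 6 genes (Mcm5, Mcm6, Mcm7, Orc6, Rfc3 and Ccne1) every Fpr2VKO library was below every Fpr2f/f library, and 5.65% of all tested genes did so.

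Among the helicase genes, all 11 estimates were below 0 (median -0.19). Mcm6, a subunit of the Mcm ring, had 157, 151 and 177 CPM in the Fpr2f/f libraries (the UMIs of the gene scaled to the same sum of UMIs in every library) against 135, 132 and 136 CPM in Fpr2VKO. All Fpr2VKO values were lower, but the log2 fold change of -0.26 (SE 0.111) had an adjusted p of 0.606 in edgeR. Mcm5, another subunit, chosen here after its values were seen, had 69.97, 65.9 and 97.0 CPM against 65.4, 59.0 and 63.7 CPM, where a single high Fpr2f/f library set much of the difference. Gins2, part of the GINS complex, had 34.6, 40.6 and 36.0 CPM against 36.1, 32.5 and 35.9 CPM, and the groups overlapped. Of the 5 genes of origin licensing and firing, 2 were above 0. Cdc6, a helicase loader, had 18.6, 16.1 and 18.4 CPM against 17, 16.8 and 20.2 CPM, and the groups overlapped fully.

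The 6 polymerase and primase genes had the median nearest to 0 (-0.04), with 1 of 6 above 0. Pola1, the catalytic subunit of DNA polymerase alpha, had 110, 99.9 and 158 CPM against 113, 99.6 and 145 CPM, with the third library of each group highest. Pcna, the sliding clamp, had 738, 523 and 689 CPM against 602, 530 and 646 CPM, and Lig1, the ligase that seals the fragments, had 93.4, 125 and 99.7 CPM against 93.1, 91.0 and 108 CPM. Both pairs of groups overlapped, with log2 fold changes of -0.13 (SE 0.131) and -0.13 (SE 0.127). Dut, which removes dUTP from the nucleotide pool, had 214, 183 and 192 CPM against 208, 170 and 217 CPM, a log2 fold change of 0.01 (SE 0.117).

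Rrm2, the small subunit of ribonucleotide reductase, had 93.4, 58.3 and 80.5 CPM in Fpr2f/f against 67.5, 47.4 and 84.2 CPM in Fpr2VKO stem-like cells. Tyms, which makes thymidylate, had 123, 119 and 106 CPM against 108, 88.5 and 115 CPM. Both overlapped between the groups. Uhrf1, which brings the DNA methyltransferase to newly copied DNA, had 173, 132 and 171 CPM against 134, 126 and 171 CPM. The estimate farthest from 0 was that of Ccne1, which encodes cyclin E1, at 11.1, 13.2 and 11.3 CPM against 8.11, 8.21 and 9.18 CPM (log2 fold change -0.49, SE 0.207, edgeR adjusted p = 0.597). E2f1, an activator of these genes, had 8.0, 9.92 and 11.5 CPM against 10.2, 9.35 and 10.7 CPM and overlapped.

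**Figure D2:**
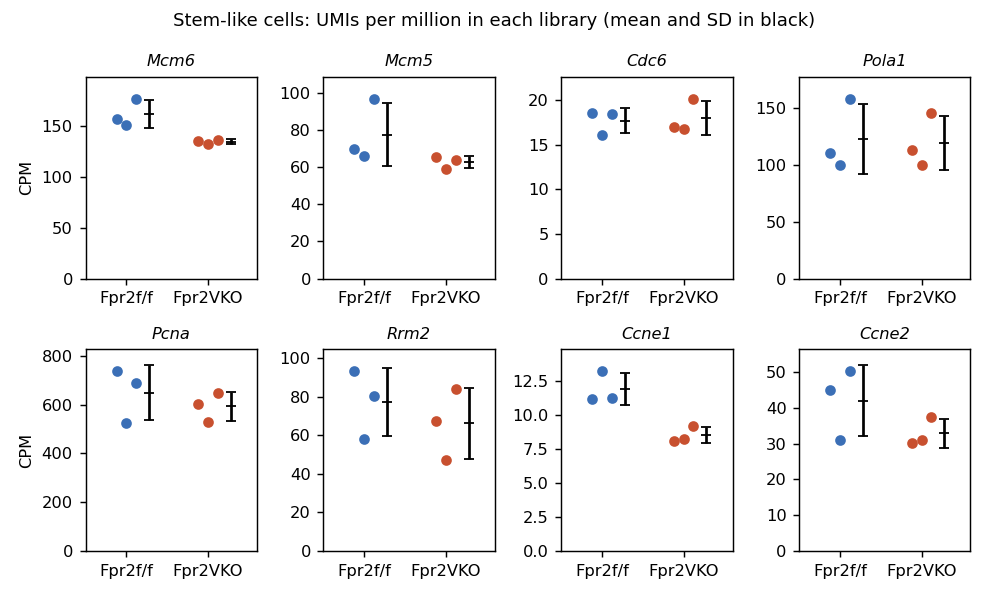
Scaled UMI counts (CPM, y axes starting at 0) of 8 replication genes in the stem-like cells of each library, with the mean and SD of 3 libraries in black. Mcm6 and Ccne1 do not overlap between the groups (Ccne1 8.11 to 9.18 against 11.1 to 13.2 CPM), whereas Cdc6, Pola1, Pcna and Rrm2 do.

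The make-up of the stem-like class varied between libraries, and its marker genes differed with the group. The class was formed by 2 clusters, and the smaller one, with the lower share of UMIs from the 44 genes over its cells (0.238% against 0.389%), held 7.46%, 21.9% and 17.2% of the stem-like cells in Fpr2f/f against 23.5%, 38.1% and 10.2% in Fpr2VKO. Within the larger cluster the share of UMIs from the 44 genes, with cells weighted equally, was 0.432%, 0.365% and 0.445% in Fpr2f/f against 0.398%, 0.342% and 0.403% in Fpr2VKO, and the groups overlapped. The 9 stem markers together were at 6523 to 7032 CPM in Fpr2f/f against 8629 to 9628 CPM in Fpr2VKO stem-like cells, and the 12 enterocyte markers at 530 to 588 against 711 to 744 CPM, also without overlap. The part of any of these in the lean was not tested. The direction also depended on how cells were chosen: with mitochondrial UMIs up to 40%, 30 of the 44 estimates were above 0 (median 0.14), with a minimum of 2500 UMIs 24 of 43 were (median 0.05), with cell cycle genes kept in clustering 24 of 43 (median 0.03), and with doublets kept 21 of 44 (median -0.01). Most estimates stayed below 0 in each fit that left out 1 library (30 to 41 of 44), with unaligned libraries (36 of 44) and in thinned cells (26 of 33). With clusters named without asking for a marker among the leading genes, 28 of 44 were below 0, with a median of -0.05.

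In TA-like cells, which divide quickly and leave the stem cell zone, none of the 44 genes passed the edgeR test (0.0169% of all tested genes did), 1 had an unadjusted p under 0.05 (4.54% of all tested genes did) and DESeq2 called 0. The estimates were below 0 in 33 genes and above 0 in 11 (median -0.05, against 0.00 over all genes, of which 50.6% were above 0). All 11 helicase genes (median -0.16), all 5 licensing genes (median -0.18) and all 6 polymerase genes (median -0.09) were below 0, whereas 4 of 5 nucleotide genes (median 0.15), 5 of 9 clamp genes, 2 of 4 cyclin E and E2F genes and 0 of 4 chromatin genes were above 0. The direction depended on the cells and libraries kept: 31 of the 44 estimates were above 0 with mitochondrial UMIs up to 10% (median 0.10), 30 with up to 40% (median 0.12), and 21 without Fpr2VKO replicate 2 or 3 (medians -0.01). The 12 enterocyte markers summed to 1071, 1134 and 902 CPM in Fpr2f/f against 1485, 1612 and 1527 CPM in Fpr2VKO TA-like cells, without overlap, and their part in the direction was not tested. Mcm6 had 88.4, 81.4 and 113 CPM in Fpr2f/f against 99.0, 79.1 and 64.4 CPM in Fpr2VKO TA-like cells, and the groups overlapped. Tyms, the thymidylate enzyme, had 103, 103 and 97.1 CPM against 122, 109 and 106 CPM, with no overlap between the groups (log2 fold change 0.15, SE 0.130). Orc1, a subunit of the origin recognition complex, had 15.1, 13.6 and 14.2 CPM against 11.1, 10.1 and 12.4 CPM, also with no overlap (-0.36, SE 0.178). Both had an edgeR adjusted p of 0.999, and groups did not overlap in 4.94% (higher) and 4.19% (lower) of all tested genes. Summed over stem-like and TA-like cells, here called progenitor-like, 0 of 44 genes passed (0.294% of all tested genes did), 1 had an unadjusted p under 0.05 (7.63% of all tested genes did), DESeq2 called 0 and the median was -0.02. With mitochondrial UMIs up to 40%, 11 of the 44 were called, all higher in Fpr2VKO, where 14% of all genes tested in that setting were called. With clusters named without asking for a marker among the leading genes, 23 of the 44 progenitor-like estimates were above 0 (median 0.02). With the main limits, stem-like cells were 134 of 527, 128 of 487 and 128 of 479 progenitor-like cells in Fpr2f/f. In Fpr2VKO they were 200 of 477, 323 of 697 and 206 of 510, a larger part in every library. Stem-like cells had the higher share of UMIs from the 44 genes, and the part of this mix in the sums was not tested. From these sums alone, fewer cells of a type and less RNA per cell cannot be told apart.

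In goblet-like cells, which make mucus, most estimates were above 0. Of 43 genes tested, 34 were above 0 (median 0.21, against 0.01 over all genes, of which 51.1% were above 0), 5 had an unadjusted p under 0.05 (9.86% of all tested genes did), and neither edgeR nor DESeq2 called any (edgeR called 0.24% of all tested genes). All 5 nucleotide genes, all 9 clamp genes, all 5 licensing genes and all 4 chromatin genes were above 0. Dut had 35.1, 34.5 and 29.97 CPM in Fpr2f/f against 39.7, 52.0 and 59.3 CPM in Fpr2VKO goblet-like cells, with no overlap (log2 fold change 0.52, SE 0.153, edgeR adjusted p = 0.184). Pclaf, a partner of Pcna, had 28, 47.3 and 28.5 CPM against 46.3, 72.8 and 55.4 CPM, a log2 fold change of 0.64 (SE 0.233) and an edgeR adjusted p of 0.383. In 6 genes (Mcm2, Orc6, Prim1, Rfc2, Rfc4 and Dut) every Fpr2VKO library was above every Fpr2f/f library, where 11.6% of all tested genes did so. Pclaf passed the test without Fpr2f/f replicate 2 (log2 fold change 0.98, SE 0.192, edgeR adjusted p = 0.0289), where 0.220% of all tested genes did, and each of the other 5 fits that left out a library called 0 of the 44. The direction was not kept under every choice of cells: 16 of 41 estimates were above 0 with unaligned libraries (median -0.12), 21 of 42 with doublets kept (0.00), 22 of 43 with mitochondrial UMIs up to 40% (0.00), 10 of 30 in cells under 10000 UMIs (-0.14) and 7 of 18 in thinned cells (-0.04). The 9 stem markers summed to 504, 612 and 581 CPM in Fpr2f/f against 711, 807 and 1123 CPM in Fpr2VKO goblet-like cells, the 12 enterocyte markers to 900 to 1163 against 1246 to 1408 CPM, and the 8 goblet markers to 109319 to 127367 against 96316 to 105350 CPM. The class pooled clusters of unlike share. The cluster led by Ccl9 and Rnase1, with 0.173% of its UMIs from the 44 genes, held 27, 32 and 43 of 311, 464 and 363 cells in Fpr2f/f. In Fpr2VKO it held 35, 58 and 37 of 286, 368 and 204. The others had 0.0508%, 0.0774% and 0.165%, and that with 0.165% held 102, 158 and 108 against 63, 80 and 50 cells. The part of the markers and of this make-up in the direction was not tested.

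Over all epithelial cells, 34 estimates were above 0 and 10 below (median 0.08, against 0.00 over all genes, of which 49.5% were above 0), and those of Dut (0.31) and Rfc4 (0.29) were highest while those of Ccne1 (-0.34) and Orc1 (-0.33) were lowest. No gene was called by edgeR (0.0181% of all tested genes were) or DESeq2, and 3 had an unadjusted p under 0.05 (8.87% of all tested genes did). With mitochondrial UMIs up to 10%, 3 of the 44 were above 0 (median -0.21). The stem markers summed to 946 to 1308 CPM in Fpr2f/f against 2159 to 2387 CPM in Fpr2VKO epithelial cells, without overlap. Progenitor-like cells were 527 of 2560, 487 of 4492 and 479 of 2722 cells in Fpr2f/f. They were 477 of 2144, 697 of 2656 and 510 of 1821 in Fpr2VKO. The part of this mix of cells in the direction was not tested. Paneth-like cells, which secrete antimicrobial peptides, had 12 of 31 estimates above 0 (median -0.21), enteroendocrine-like cells 17 of 27 (median 0.19), enterocyte-like cells 3 of 8 (median -0.12) and the unnamed clusters 10 of 44 (median -0.18). The 2 estimates farthest from 0 were those of Prim1 (-0.75) and Pola2 (-0.73), which act in priming, in Paneth-like cells, and of the helicase genes Mcm4 (0.99) and Mcm3 (0.73) in enteroendocrine-like cells. In these 4 groups of cells edgeR and DESeq2 called 0 of the genes, and 1, 0, 0 and 1 of them had an unadjusted p under 0.05, where 9.14%, 3.55%, 4.64% and 6.58% of all tested genes were. EdgeR called 0.495%, 0.0108%, 0.0124% and 0.00748% of all tested genes there, and their medians lay between -0.01 and 0.00. These directions also changed with the cells or libraries kept. In Paneth-like cells 28 of 40 estimates were above 0 with unaligned libraries (median 0.22), 27 of 41 with doublets kept (0.14) and 38 of 44 with mitochondrial UMIs up to 40% (0.29). In enterocyte-like cells 30 of 35 were above 0 with the limit of 40% (0.45), 21 of 27 with doublets kept (0.26) and 4 of 6 without Fpr2f/f replicate 2 (0.26). In enteroendocrine-like cells 9 of 30 were above 0 without that library (-0.18), and in the unnamed clusters 39 of 44 with cell cycle genes kept in clustering (0.22).

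**Figure D3:**
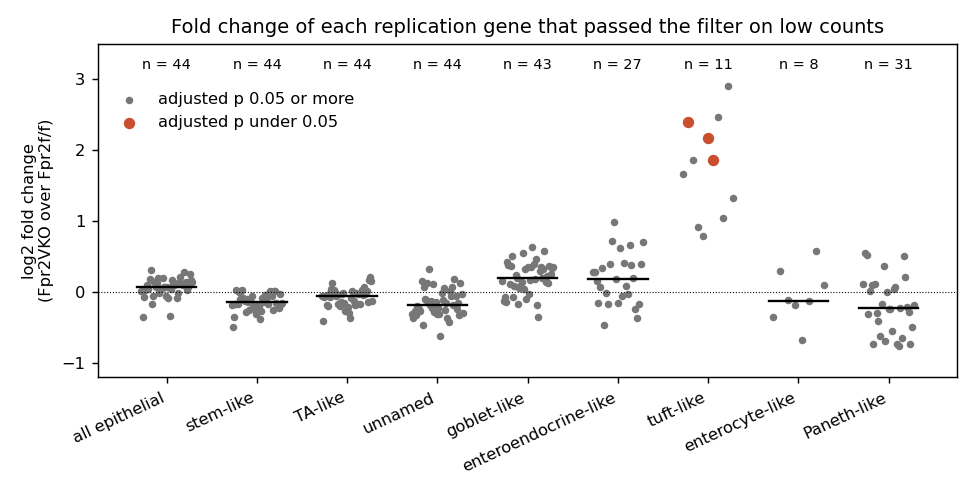
Log2 fold change (Fpr2VKO over Fpr2f/f, edgeR) of each tested replication gene in each class of cells; grey points have an adjusted p of 0.05 or more, red points a lower one, and lines are medians, left out for tuft-like cells. The 3 red points are Dut (2.39), Pclaf (2.18) and Pcna (1.86) in tuft-like cells, where 33 of the 44 genes were too low to be tested and are not drawn. Several genes drawn there, Dut and Pclaf among them, passed the filter on low counts only through Fpr2VKO.

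Other genes of the cycle were read from lists in the same way, and edgeR and DESeq2 called 0 of them in any class, with 0 to 6 per list and class at an unadjusted p under 0.05. Among 48 further replication genes, 15 estimates were above 0 in stem-like cells (median -0.03) and 40 over all epithelial cells (median 0.09). Among 23 regulators of the G1 to S step, 12 were above 0 in stem-like cells (median 0.04). In stem-like cells 1 gene of each of these lists had an unadjusted p under 0.05, named here after the values were seen: Wdhd1, a factor of the replication fork, with a log2 fold change of -0.33, and Ccnd1, which encodes cyclin D1, with -0.30. Of the 20 mitosis genes, 18 were above 0 in stem-like cells (median 0.10, where 50.7% of all tested genes were above 0) and 18 in TA-like cells (median 0.14, where 50.6% were). In goblet-like cells all 20 mitosis genes were above 0 (median 0.38, where 51.1% of all tested genes were), and 6 had an unadjusted p under 0.05, where 9.86% of all tested genes did.

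In tuft-like cells 3 of the 44 genes passed the test, all higher in Fpr2VKO. The tuft-like cells came from 1 cluster led by Dclk1, with 48, 83 and 63 cells in Fpr2f/f against 48, 51 and 47 in Fpr2VKO libraries, and all 9 tuft markers were detected in every library. Counts were low, and 33 of the 44 genes did not pass the filter on low counts, so their values are given as UMIs. The filter asks for enough UMIs in 3 libraries, and Dut, Pclaf, Pola1, Rfc4 and Mcm6 met it only through Fpr2VKO. That the tested genes were higher in Fpr2VKO is therefore no separate result. Over all 44 genes there were 77, 164 and 169 UMIs in Fpr2f/f against 597, 405 and 470 in Fpr2VKO tuft-like cells, or 410 against 1472 in all. They made up 0.0545%, 0.0487% and 0.0687% of the UMIs of these cells in Fpr2f/f against 0.151%, 0.246% and 0.170% in Fpr2VKO. In 29 of 44 genes every Fpr2VKO library was above every Fpr2f/f library, and in 0 genes below, where 7.59% of the 16362 genes with a UMI in tuft-like cells were above.

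Dut, Pcna and Pclaf rose in Fpr2VKO tuft-like cells (edgeR, adjusted p under 0.05, passed by 0.446% of the 4039 genes tested, and by 0.173% of them with higher levels in Fpr2VKO). Dut had 2, 7 and 5 UMIs (14.1, 20.8 and 20.3 CPM) in Fpr2f/f against 43, 28 and 21 UMIs (109, 170 and 75.8 CPM) in Fpr2VKO. The groups did not overlap, with a log2 fold change of 2.39 (SE 0.445, edgeR adjusted p = 0.0174). Pcna had 7, 17 and 28 UMIs (49.5, 50.5 and 114 CPM) against 71, 68 and 84 UMIs (180, 413 and 303 CPM), a log2 fold change of 1.86 (SE 0.358, edgeR adjusted p = 0.0193). Pclaf had 1, 6 and 12 UMIs (7.07, 17.8 and 48.8 CPM) against 57, 24 and 30 UMIs (145, 146 and 108 CPM), a log2 fold change of 2.18 (SE 0.431, edgeR adjusted p = 0.0244). These calls rest on few UMIs and few cells. In Fpr2VKO the 2 cells per library richest in UMIs of the 44 genes held 20 of 43, 26 of 28 and 14 of 21 Dut UMIs. They held 43 of 57, 22 of 24 and 23 of 30 for Pclaf, and 23 of 71, 57 of 68 and 57 of 84 for Pcna. In Fpr2f/f such cells held 1 of 2, 0 of 7 and 2 of 5 for Dut, 1 of 1, 0 of 6 and 4 of 12 for Pclaf, and 0 of 7, 7 of 17 and 5 of 28 for Pcna. No gene was called without Fpr2f/f replicate 2 (15 of the 44 tested), with mitochondrial UMIs up to 40% (30 tested) or with a minimum of 2500 UMIs (11 tested), where 0.0454%, 0.587% and 0.0230% of all tested genes were. With unaligned libraries Pcna and Rfc2 alone passed the filter on low counts, and without the 2 cells per library richest in these UMIs Pcna alone did. Pcna was not called in either, and Dut and Pclaf had no test there. With doublets kept Dut and Pola1 were called, and Pcna and Pclaf were not (0.0901% of all tested genes were called). Without Fpr2f/f replicate 3 there were 5 calls, where 0.647% of all tested genes were called, and without Fpr2VKO replicate 3 there was 1, Dut, where 0.0697% were. DESeq2 called Pcna alone, and 0.545% of all tested genes. Without the filter on low counts 6 of the 44 were called, where 0.232% of the 16362 genes were.

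**Figure D4:**
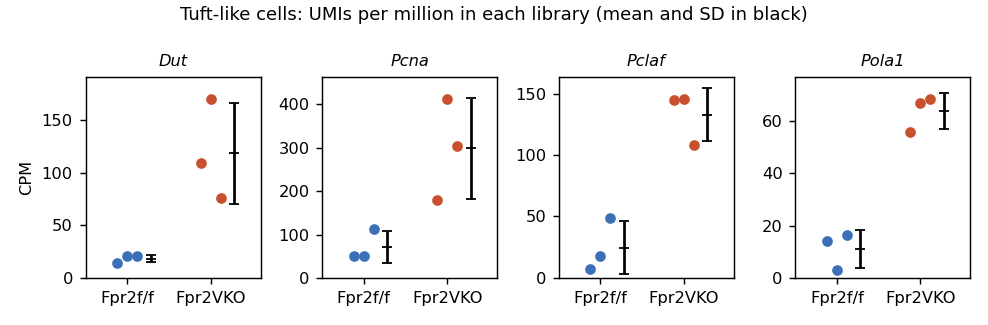
Scaled UMI counts (CPM, y axes starting at 0) of Dut, Pcna, Pclaf and Pola1 in the tuft-like cells of each library, with the mean and SD of 3 libraries in black. In each of the 4 genes the lowest Fpr2VKO library is above the highest Fpr2f/f library (for Pola1 55.8 against 16.3 CPM).

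The other genes by role had fewer UMIs, and none of them passed the test. Pola1 of DNA polymerase alpha had 2, 1 and 4 UMIs against 22, 11 and 19 UMIs (log2 fold change 2.47, SE 0.565, edgeR adjusted p = 0.0522), and the groups did not overlap. Rfc4, a subunit of the clamp loader, had 0, 1 and 3 UMIs against 21, 7 and 14 UMIs (2.91, SE 0.735, adjusted p = 0.0994). Mcm6 had 4, 3 and 2 UMIs against 23, 7 and 15 UMIs (1.87, SE 0.568, adjusted p = 0.151). Gins2 had 0, 6 and 3 UMIs against 10, 5 and 3 UMIs, and the CPM of the groups overlapped. Among licensing genes, Cdc6 had 0, 0 and 3 UMIs against 4, 1 and 1 UMIs, at the edge of what these cells can show, and Orc1 had 1, 1 and 1 against 0, 0 and 1. Lig1 had 2, 10 and 8 UMIs against 14, 18 and 4 UMIs and overlapped. In nucleotide supply, Tyms had 2, 5 and 4 UMIs against 25, 14 and 10 UMIs, without overlap, and Rrm2 had 7, 3 and 3 UMIs against 14, 16 and 12 UMIs, with overlap in CPM (49.5, 8.90 and 12.2 against 35.5, 97.2 and 43.3 CPM). Uhrf1, of chromatin, had 3, 0 and 3 UMIs against 13, 26 and 14 UMIs, without overlap. Ccne1 (cyclin E1) and Gins3 were at 0 UMIs in all 3 Fpr2f/f libraries, and had 2, 1 and 0 and 1, 2 and 0 UMIs in the Fpr2VKO libraries. E2f1 had 0, 1 and 1 UMIs against 2, 1 and 3 UMIs.

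The difference between tuft-like and progenitor-like cells was itself tested, in 1 edgeR model of both sums with the library as a block. The genotype effect was larger in tuft-like cells for 7 of the 44 genes (adjusted p under 0.05, passed by 0.265% of the 12474 genes tested), and 40 of the 44 estimates were above 0. For Dut the difference of the log2 fold changes was 2.19 (SE 0.438, edgeR adjusted p = 0.000837), and for Pola1 it was 2.50 (SE 0.564, edgeR adjusted p = 0.00723). Without the 2 richest cells per library, described next, these differences were 0.94 and 1.79 (edgeR adjusted p = 0.810 and 0.551), and the call of Pola1 was lost when Fpr2f/f replicate 2 (2.08, adjusted p = 0.237) or replicate 3 (2.80, adjusted p = 0.0529) was left out. The other 5 that passed were Pcna, Pclaf, Mcm5, Rfc4 and Uhrf1, and without the 2 richest cells none of the 7 did. Among genes that did not pass, the difference was 2.00 (Mcm6, SE 0.540), 1.75 (Tyms, SE 0.513) and 1.26 (Rrm2, SE 0.517), with edgeR adjusted p-values of 0.0692, 0.107 and 0.407.

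The UMIs of these genes were unevenly spread over tuft-like cells. The richest cell of each library held 40.3%, 6.71% and 13.0% of them in Fpr2f/f against 28.3%, 72.8% and 60.0% in Fpr2VKO. In Fpr2VKO replicate 2 that cell had 295 such UMIs from 41 of the 44 genes, of 39511 UMIs in all. Its counterpart in replicate 3 had 282 from 41 genes, of 51170 UMIs, with 322 UMIs of tuft markers. In replicate 1 it had 169 from 36 genes, of 37179 UMIs, with 26 UMIs of tuft markers, 55 of stem markers and 142 of TA markers. In all, 10 of the 146 Fpr2VKO tuft-like cells had 20 or more of these UMIs and held 1120 of the 1472, and 2 of the 194 Fpr2f/f cells did and held 53 of the 410.

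Markers of cell types differed between these rich cells and the rest. The 10 rich Fpr2VKO cells had 2714 CPM of tuft markers, 1319 CPM of stem markers and 1893 CPM of TA markers, and the remaining 136 had 6330, 593 and 610 CPM. Single rich cells held 4 to 322 UMIs of tuft markers, the most being in the replicate 3 cell above. Their summed value therefore need not describe each cell. The remaining 136 held 0 to 558 each. Markers of the other cell types were lower in the rich cells, with 618 against 2920 CPM for Paneth, 327 against 1164 for goblet, 1112 against 1773 for enterocyte, 63.8 against 217 for enteroendocrine and 15.9 against 75.2 for immune markers. Over all tuft-like cells, the tuft markers summed to 5546 to 9718 CPM in Fpr2f/f against 3459 to 7185 CPM in Fpr2VKO. The stem markers (7 to 9 of 9 detected per library; Igfbp4, Tnfrsf19 and Ascl2 were each at 0 in some) summed to 321 to 553 and 535 to 1318 CPM. The TA markers (7 or 8 of 8 detected; Ccnb1 was at 0 in Fpr2VKO replicate 2) summed to 683 to 1146 and 910 to 1080 CPM. Of the 9 immune markers 3 to 6 were detected, at 56.9 to 248 and 30.4 to 75.8 CPM, and Nkg7 was at 0 in every library. Tuft-like cells of at least 10000 UMIs numbered 1, 5 and 4 in Fpr2f/f against 9, 2 and 5 in Fpr2VKO. The part of these markers, of depth and of doublets in the rise was not tested.

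**Figure D5:**
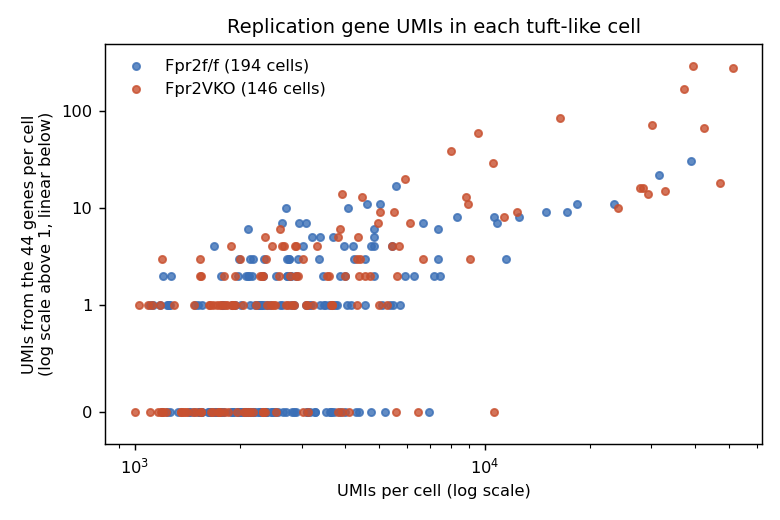
UMIs of the 44 replication genes (y axis, log scale above 1) against all UMIs (x axis, log scale) in each of the 340 tuft-like cells, in blue for Fpr2f/f (194 cells) and red for Fpr2VKO (146 cells). Most cells of both groups lie below 10 such UMIs, and the cells with 20 or more are 10 from Fpr2VKO and 2 from Fpr2f/f.

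Without the 2 richest cells of each library, the summed share of these UMIs was 0.0392%, 0.0481% and 0.0622% in Fpr2f/f against 0.101%, 0.0708% and 0.0592% in Fpr2VKO, and the groups overlapped. The median cell had 0%, 0.0314% and 0.0498% in Fpr2f/f against 0.0564%, 0.0403% and 0.0502% in Fpr2VKO, which also overlapped. With every cell of at least 2000 UMIs counted equally (26, 69 and 47 against 43, 21 and 32 cells) the groups stood apart, as given above for all classes, and without the 2 richest cells the means were 0.0409%, 0.05005% and 0.0636% in Fpr2f/f against 0.0878%, 0.0747% and 0.0655% in Fpr2VKO. These did not overlap, but the nearest libraries of the groups were then close.

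Shares of tuft-like cells with a UMI were compared at an equal depth of 2000 UMIs, as the mean over all draws of 2000 UMIs from a cell. Pola1 and Dut were chosen for this with earlier results of these data known. Both met the filter on low counts only through Fpr2VKO. The shares restate the same UMIs per cell and are no separate result. For Pola1 the share was 2.61%, 0.720% and 2.75% in Fpr2f/f against 8.62%, 10.1% and 4.27% in Fpr2VKO. All Fpr2VKO values were higher (2.02% ± 1.13 against 7.65% ± 3.01, exact two-sided permutation p = 0.1, the smallest that 3 against 3 libraries allow). The groups overlapped with a mitochondrial limit of 10%, a minimum of 2500 UMIs or thinning to 1000 UMIs (1.33% against 2.89%). Under the other alternatives they stayed apart. Enterocyte-like cells, taken as background because they do not divide, had 0.886% and 0.963%, and Paneth-like cells 1.45% and 2.31%. For Dut the share was 0.197%, 5.93% and 3.87% against 10.4%, 5.03% and 9.27%, and the groups overlapped (3.33% ± 2.90 against 8.25% ± 2.85, exact two-sided permutation p = 0.2). Its background was 0.912% and 1.25% in enterocyte-like and 3.22% and 3.10% in Paneth-like cells, and progenitor-like cells had 22.7% and 25.5%. Without thinning, 6.85% and 15.9% of tuft-like cells had a Dut UMI and 2.85% and 13.0% a Pola1 UMI, at median depths of 1795 to 3740 UMIs per library, where enterocyte-like cells had 9667 to 37190 UMIs. Of the tuft-like cells, 14 to 22 per Fpr2f/f library and 5 to 30 per Fpr2VKO library were too shallow for the thinned shares.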

How the data were processed

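Ileal crypt cells of 3 Fpr2f/f and 3 Fpr2VKO libraries were measured by droplet RNA-seq. The authors deposited raw UMI counts per gene and barcode, made with MobiVision 2.1 on mm10 (submitters' processing notes). Barcodes with at least 1000 UMIs, 500 genes and at most 20% mitochondrial UMIs were kept, and 0.8% likely doublets per 1000 cells were removed by a score against artificial ones. Cells were clustered on 2000 variable genes without the 44 genes, cell cycle genes or histones (30 components, mutual nearest neighbours, Leiden resolution 1; leidenalg 0.10.2, Python 3.11.15). A cluster took a class name when its class markers had a mean log2 fold of at least 0.5, with 3 of them higher and 1 among its 10 leading genes. The cluster named immune was left out. A cluster of 30 cells led by Ighm and Jchain took no name and was kept among the unnamed and all epithelial cells. Total counts were 90142126 to 189516114 UMIs per library.

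UMIs were summed per library and class (at least 20 cells) and tested with edgeR 4.0.16 (quasi-likelihood, TMM, filterByExpr; R 4.3.3), with Benjamini-Hochberg adjustment over all genes and a threshold of 0.05, and with DESeq2 1.42.0 as an alternative. Thinned shares are means over all draws of 2000 UMIs from a cell, a form taken after single draws were seen to differ. The scripts were tested on simulated data. No label says whether replicate numbers pair the libraries, so the main fit has no block. Values per library are given mainly for 12 genes that stand for the roles, for genes that passed the test and for genes at 0. In some classes the highest or lowest estimates are named by log2 fold change alone. The 44 genes, the lists and the tests were chosen with earlier results of these data known.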

Additional observations from a re-analysis of the deposited data

Results flagged for a closer look

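The genotype effect (Fpr2VKO over Fpr2f/f, log2) differed between tuft-like and progenitor-like cells for 7 of the 44 replication genes, by the edgeR test of the difference itself with the library as a block, where 0.265% of the 12474 genes tested passed, and it was the larger in tuft-like cells for each. The difference was 2.19 for Dut (SE 0.438, adjusted p = 0.000837), 2.14 for Pclaf (SE 0.394, adjusted p = 0.000106), 1.82 for the clamp Pcna (SE 0.296, adjusted p = 2.68e-06) and 2.50 for Pola1 (SE 0.564, adjusted p = 0.00723). It was 3.04 for Mcm5 (SE 0.771, adjusted p = 0.0350), 2.87 for Rfc4 (SE 0.681, adjusted p = 0.0174) and 2.82 for Uhrf1 (SE 0.573, adjusted p = 0.00113). Mcm5 had 1, 1 and 1 UMIs in Fpr2f/f and 9, 10 and 8 UMIs in Fpr2VKO tuft-like cells, and in stem-like cells it lay lower in every Fpr2VKO library without passing the test. These values rest on few tuft-like cells of high depth, as given with the cells above. Without the 2 richest cells per library edgeR called 0 of the 44, and these 7 had adjusted p-values from 0.183 (Rfc4) to 0.953 (Pclaf). It also called 0 with a mitochondrial limit of 40% or a minimum of 2500 UMIs, and without Fpr2f/f replicate 2 it called 2, Dut and Pcna. The shares of all genes called in these alternative fits are not given here, so the counts are not set against a background.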

How the results depend on the processing

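With 3 libraries per group, 47 to 83 tuft-like cells per library and most replication genes at a few UMIs there, depth limits what tuft-like cells can show, and leaving out a library leaves 2 against 3. In all epithelial, stem-like, TA-like, Paneth-like, enterocyte-like, enteroendocrine-like and unnamed cells, no alternative that gave a value called any of the 44 genes. A mitochondrial limit of 10% left too few stem-like and tuft-like cells for a test. Same-numbered libraries correlated from -0.15 to 0.33, and in no class were all 3 pairs over 0.1. In stem-like cells all 3 were above 0 (0.05, 0.13 and 0.22). Whether the numbers pair the libraries was not settled by these values. With the replicate block, 1 gene was called in goblet-like cells (Pclaf; 1.02% of all tested genes) and 2 in tuft-like cells (Dut and Pcna, with adjusted p = 0.121 for Pclaf; 0.396% of all tested genes), and other counts of called genes among the 44 did not change. The block called 0.515% of all tested genes in stem-like, 0.667% in TA-like and 1.31% in progenitor-like cells, more than the main fit did.

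The 3 calls in tuft-like cells were 6 without the filter on low counts, 1 with DESeq2, 2 with doublets kept (Dut and Pola1), and 0 of 30 tested with a mitochondrial limit of 40% and of 11 tested with a minimum of 2500 UMIs. With unaligned libraries they were 0 of 2 tested, and 0 of 1 tested (Pcna) under the alternatives chosen after seeing the data, which were thinning cells to 2000 UMIs, cells under 10000 UMIs only, and tuft-like cells without the 2 richest per library, so Dut and Pclaf had no test in these 4. Leaving out 1 library gave 0 to 5 calls (0 when Fpr2f/f replicate 2 was left out, 5 for replicate 3 of that group, and 1 for Fpr2VKO replicate 3), where 0.0454% to 1.71% of all tested genes were called. In goblet-like cells 1 gene, Pclaf, was called without the filter (0.4998% of all tested genes), and 0 to 1 when 1 library was left out (0.0619% to 0.459%). In progenitor-like cells 11 were called with a limit of 40%, where 14% of all tested genes were.

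The difference between tuft-like and progenitor-like effects was 0.64 (Dut) and 0.13 (Pola1) with a limit of 40%, 1.36 and 1.70 with a minimum of 2500 UMIs, and 1.62 and 1.62 with unaligned libraries. It was -0.70 and 1.79 in thinned cells, 0.59 and 1.24 in cells under 10000 UMIs, and 0.94 and 1.79 without the 2 richest cells, all with adjusted p over 0.05. Leaving out 1 library gave 2.08 to 2.80 for Pola1, with adjusted p = 0.237 when Fpr2f/f replicate 2 was left out and 0.0529 for replicate 3 of that group. The share of tuft-like cells with a Dut UMI differed by -5.10 percentage points with a limit of 10%, over 14, 32 and 12 cells in Fpr2f/f against 7, 5 and 2 in Fpr2VKO, of which none had one.

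The share of UMIs from the 44 genes (Fpr2VKO minus Fpr2f/f, percentage points) was -0.0456 over all epithelial cells with a limit of 10% and 0.0524 in progenitor-like cells with a limit of 40%. In tuft-like cells it was -0.00738 and 0.0450 with these limits, 0.0397 in cells under 10000 UMIs, 0.0270 without the 2 richest and 0.0461 in thinned cells. With the limit of 40%, the log2 fold changes of Mcm6 in tuft-like cells (-0.32), Ccne1 in stem-like cells (0.29) and Ccne2 in stem-like cells (0.18) changed sign, and that of Ccne2 also did with a minimum of 2500 UMIs (0.27) and with cell cycle genes kept in clustering (0.31). The cause of these changes was not tested.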

Other observations

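In 2 of the 12 clusters that no marker list named, histone genes of the Hist1 group were among the 10 leading genes, and these 2 are described here after their values were seen. The other 10 had none there. The largest unnamed cluster held 2735 cells, and Hist1h4f, Hist1h4d, Hist1h1e and Hist1h1b were among its 10 leading genes, as were Il31ra and Gphn. The 44 replication genes gave 0.219% of its UMIs. Another, of 1241 cells, was led by Celf2 and Tex14, followed by Hist1h3c and Hist1h2bj, and had 0.170%. By comparison, the TA-like clusters had 0.282% and 0.258%, and the immune cluster that was left out had 0.216%. Histone genes were kept out of the clustering, as were the 44 genes.

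In Paneth-like cells 13 of 16 tested mitosis genes had estimates below 0 (median -0.32), where 50.1% of all tested genes were above 0. Of the 16 genes, 5 had an unadjusted p under 0.05, where 9.14% of all tested genes did. The goblet markers summed to 17629 to 19278 CPM in Fpr2f/f against 13491 to 14496 CPM in Fpr2VKO Paneth-like cells. The stem markers summed to 143 to 213 against 229 to 307 CPM, and the part of these markers was not tested. None of the mitosis genes passed the edgeR or DESeq2 test in that class.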
